A study of Xenopus laevis with 10 samples.

Results

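The genes described here are the cathepsins, the other proteins named for the lysosome and the subunits of the V-type proton ATPase in the intestinal tube of the tadpole of Xenopus laevis. They were chosen by the descriptions in the deposited count tables: a row was taken where its description, in any case, held cathepsin, lysosomal, lysosome-associated, V-type proton ATPase, or ATPase H+ transporting with V0 or V1. Among the transcript variants of a gene the row with the highest total count was kept, which left 123 genes of 34217. By the role of the named protein these were 45 hydrolases, 18 membrane proteins, 43 pump subunits and 17 other members. The hydrolase class held 34 cathepsins, 9 other lysosomal hydrolases and 2 thiol reductases, which are counted there although they are not hydrolases.

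The libraries were made from whole intestinal tubes of fed and of unfed tadpoles raised at 19 °C, with 20 to 26 tubes in each pool. Each feeding state had 5 libraries: in experiment 1 there was 1 library each at 10 and 13 days post fertilization (dpf), and in experiment 2 there was 1 each at 10, 13 and 16 dpf. For 2 libraries of experiment 1 (fed, titled 13 dpf, and unfed, titled 10 dpf) the stage field gives the other of these 2 ages; the titles were used. The food, the strain and whether the libraries are separate clutches are not given in the labels, so p-values measure only the spread between these libraries.

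Lysosomes are acidic compartments in which proteins, lipids, glycans and nucleic acids taken up by endocytosis or autophagy are broken down. The V-type proton ATPase acidifies them: its V1 sector, on the cytosolic side, hydrolyses ATP, and its V0 sector carries protons across the membrane. Cathepsins and most other lysosomal hydrolases work best at that low pH, membrane proteins such as the LAMPs line the compartment, and transporters return the products to the cytosol. The larval enterocyte takes up material from the gut lumen by endocytosis, and leukocytes are also rich in lysosomes.

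Gene totals ran from 7002453 to 9939979 counts per library. Levels are given as CPM, the count relative to the scaled library total, and levels that are compared between genes as RPKM, the CPM divided by the transcript's length in kilobases, computed here. Where the values of 5 libraries are listed, the order is 10 and 13 dpf of experiment 1, then 10, 13 and 16 dpf of experiment 2. Fold changes over all ages are log2 of fed over unfed with the standard error (SE), from edgeR's quasi-likelihood test with Benjamini-Hochberg adjustment over all 21674 genes tested, and a gene rose or fell where its adjusted p was under 0.05. In pooled tissue, fewer cells of a type and less RNA per cell cannot be told apart.

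Over all ages, more hydrolases fell than rose with feeding. Pump subunits rose about as often as all genes did, and few of them fell. Most members of both the membrane and pump classes did not pass the test. Of the 96 members with enough counts to test, 16 were higher and 19 lower in fed tadpoles, beside 25.4% of all genes tested higher and 26.1% lower. The 35 calls are 36.5% of the tested members, against 51.5% of all genes. The median log2 fold change was 0.02 over the tested members and -0.02 over all genes. Among hydrolases 3 of 28 rose and 11 fell, with a median of -0.43. Among membrane proteins 1 of 14 rose and 4 fell, with a median of -0.09. Among pump subunits 9 of 37 rose, near the 25.4% of all genes, and 2 fell, well under the 26.1% of all genes, with a median of 0.14. Among the other members 3 of 17 rose and 2 fell, with a median of 0.08. The percentages called were 50% of hydrolases, 35.7% of membrane proteins and 29.7% of pump subunits. All 35 called members had the same sign in both experiments. In all 5 pairs of fed and unfed libraries of the same age and experiment, 33 of them had it. They were called on these same libraries, so this is not separate support. Called or not, 17 of the 96 tested members were higher and 21 lower in all 5 pairs. Of all 21674 genes tested, 5416 were higher and 5673 lower in all 5 pairs. Within experiment 1 alone 3 of the 35 were called, and within experiment 2 alone 21. With all libraries 5509 of all genes were higher and 5654 lower. These counts were 1959 and 1672 within experiment 1, and 4827 and 4549 within experiment 2. The count of members that rose was 16 with all libraries, 10 without unfed 13 dpf of experiment 1, 10 without fed 13 dpf of experiment 2 and 9 without unfed 13 dpf of experiment 2. In the same order, the count of all genes that rose was 5509, 4757, 4783 and 4448.

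**Figure D1:**
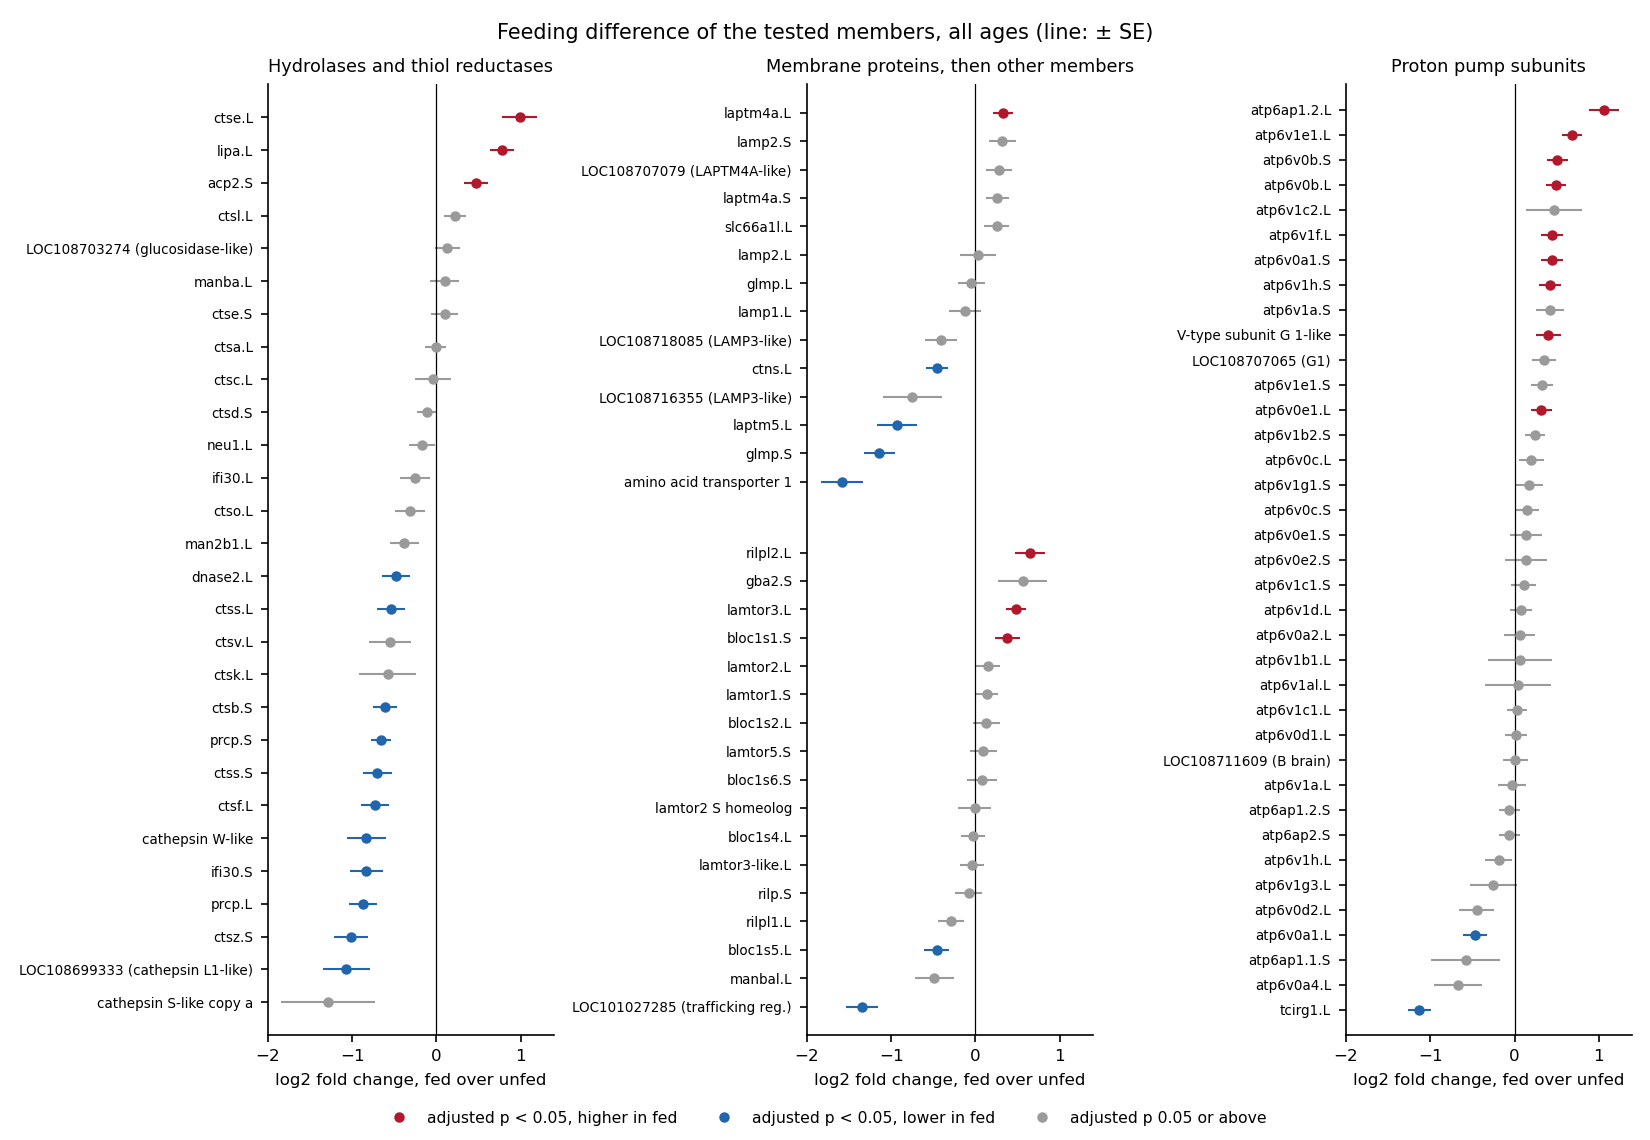
Log2 fold change of fed over unfed tadpoles over all ages (x axis, log2 units; points with lines of ± SE) for the 96 tested members, ordered within each class; red points rose, blue points fell and grey points had an adjusted p of 0.05 or above. Blue points gather among the hydrolases (11 of 28), whereas among the pump subunits 26 of 37 are grey and tcirg1.L stands lowest.

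Few members changed strongly. Only 7 of the 96 were both past the adjusted p and past 2-fold, against 19.2% of all genes tested. They were 6 members that fell (2 cathepsins, a transporter, glmp.S, tcirg1.L and the lysosomal-trafficking regulator LOC101027285) and the pump's accessory subunit atp6ap1.2.L, which rose. The fed and unfed CPM did not overlap for 14 members, 7 higher in fed tadpoles and 7 lower, beside 15.7% and 14.8% of all genes.

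Summed over the class, hydrolases took a smaller share of the raw counts in fed tadpoles. These shares lack the scaling of library totals that CPM and fold changes carry. The scaling factors ran from 0.863 to 1.07 in fed and from 1.04 to 1.09 in unfed libraries. A lower factor raises a library's scaled level relative to its raw share. Their share of all gene counts was 0.214%, 0.178%, 0.151%, 0.179% and 0.216% in the fed libraries, against 0.241%, 0.261%, 0.233%, 0.235% and 0.288% in the unfed ones. The raw shares of the groups did not overlap, and the lowest unfed library was above the highest fed one. With scaling the groups overlapped. The fed library at 16 dpf (share 0.216%, factor 0.91) then lay above the unfed library at 13 dpf of experiment 2 (share 0.235%, factor 1.07). Cysteine cathepsins held the largest part of these counts, at 0.112% ± 0.025 in fed and 0.183% ± 0.0178 in unfed libraries (SD, n = 5 each). The most abundant of them, ctsv.L, did not itself pass the test. Aspartic cathepsins held a larger share in fed tadpoles, at 0.0407% ± 0.00332 in fed and 0.0278% ± 0.00542 in unfed libraries (SD, n = 5 each), also without overlap. Of the 3 tested aspartic cathepsins only the most abundant, ctse.L, passed the test. The shares of membrane proteins (0.101% ± 0.0147 in fed, 0.115% ± 0.00842 in unfed) and of pump subunits (0.112% ± 0.00596 in fed, 0.113% ± 0.0107 in unfed) overlapped between the states. The near equal pump shares are also unscaled. With scaling, the median log2 fold change of the tested pump subunits was 0.14. The ratio of summed pump CPM to summed hydrolase CPM was 0.607 ± 0.0769 in fed and 0.449 ± 0.0423 in unfed libraries (SD, n = 5 each), with no overlap.

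**Figure D2:**
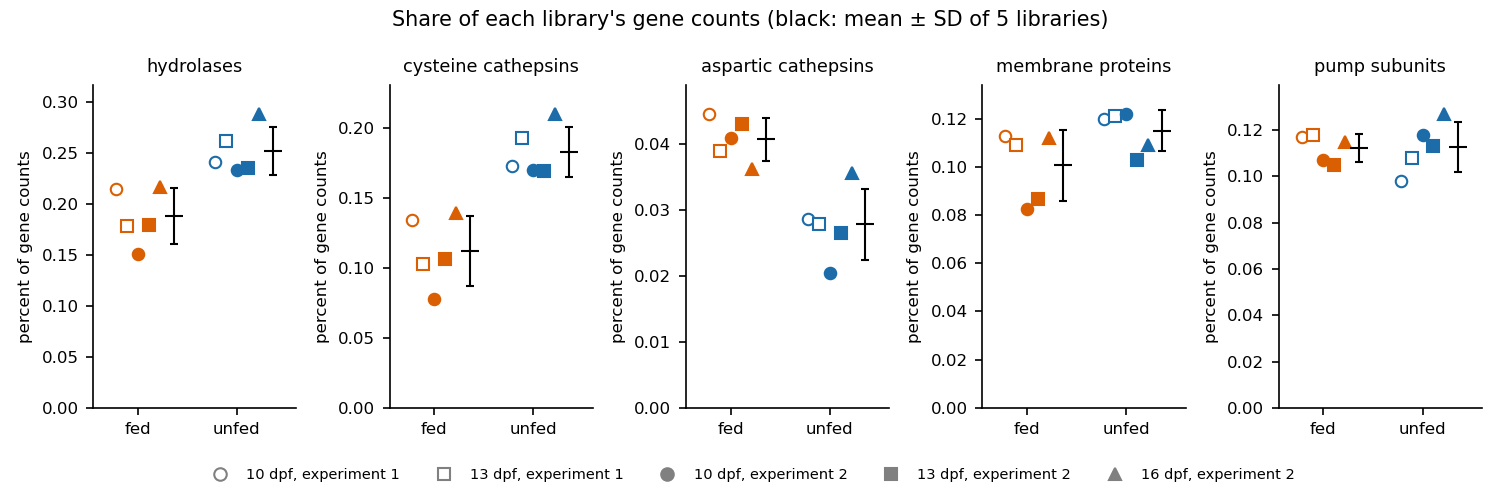
Percent of each library's gene counts (y axes, from 0) held by 5 groups of members in fed and unfed libraries; marker shape gives the age, open markers experiment 1, filled markers experiment 2, and the black bar the mean ± SD. Fed libraries lie below unfed ones for hydrolases and cysteine cathepsins and above them for aspartic cathepsins, whereas pump subunits overlap. The shares are of raw counts, without the scaling of library totals used for CPM. With that scaling the hydrolase groups overlap. Of the tested aspartic cathepsins only ctse.L rose.

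Of the 34 cathepsins 17 had enough counts to be tested, and 1 rose while 7 fell. That is 47.1% called, beside 51.5% of all genes tested (25.4% higher and 26.1% lower). Per length, the order of levels over the 10 libraries was led by ctsv.L, a cysteine cathepsin of the cathepsin L group, at 494 ± 149 RPKM (SD, n = 10). The aspartic protease ctse.L came next at 165 ± 63.5 RPKM, and ctsc.L, the dipeptidyl peptidase that activates granule proteases in mammals, was next at 86.2 ± 24.8 RPKM. Both gaps above ctsc.L were larger than the spread over the 10 libraries of both states together. In fed libraries alone ctse.L averaged 219 ± 34.6 RPKM and ctsc.L 86.5 ± 30.1 RPKM. In unfed libraries alone they lay closer, at 111 ± 26 RPKM for ctse.L and 85.9 ± 21.8 RPKM for ctsc.L, within the spread of ctse.L. From ctsc.L down through ctss.S (65.6), ctsb.S (65.3), ctsk.L (60.4), ctsz.S (56.6), ctsf.L (42.8), ctsa.L (41.4), ctss.L (34.6), ctse.S (27.9), ctsl.L (25.9) and ctsd.S (24.6 RPKM), no neighbour differed from the next by more than that spread. The remaining tested cathepsins, ctso.L (6.91), the cathepsin W-like gene (4.72), the cathepsin L1-like gene LOC108699333 (2.99) and a cathepsin S-like gene absent from the gene table and called copy a here (0.932 RPKM), lay far lower.

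**Figure D3:**
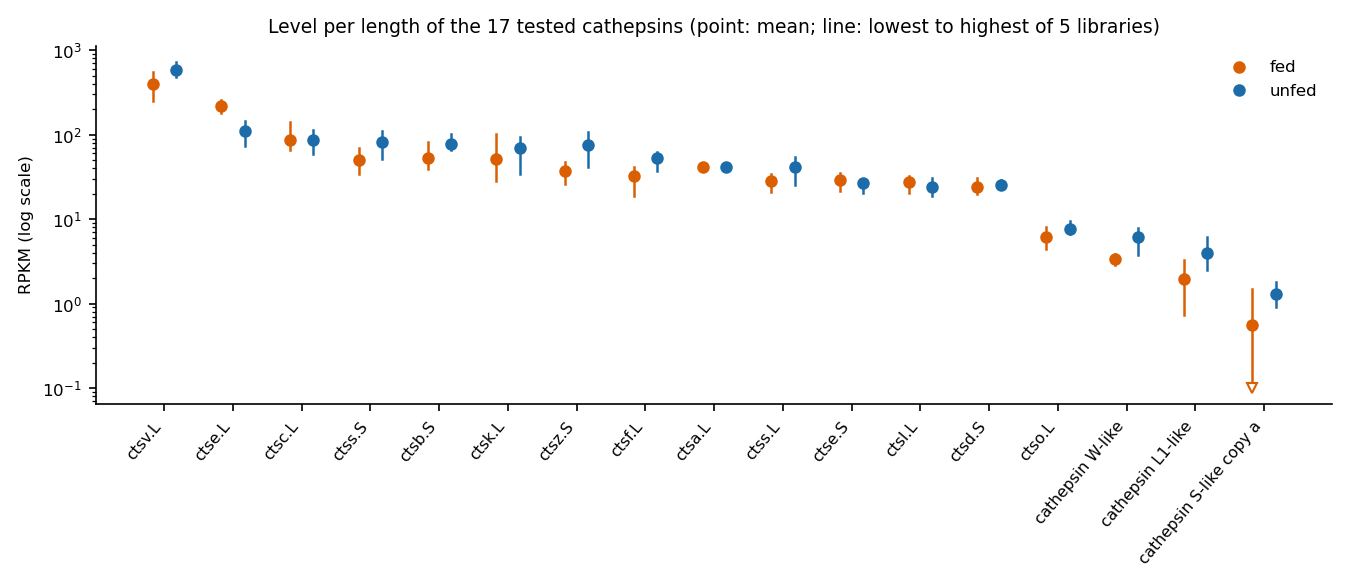
RPKM (y axis, log scale) of the 17 tested cathepsins in fed (orange, left) and unfed (blue, right) libraries; points are means and lines run from the lowest to the highest of 5 libraries, and an open triangle marks a library at 0. ctse.L is the gene whose fed range lies wholly above its unfed range, and ctsv.L has the highest level in both states.

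The cathepsin that rose was ctse.L, cathepsin E, an endosomal aspartic protease known from the gastric epithelium and immune cells of mammals. It had 374, 287, 367, 406 and 287 CPM in fed libraries, against 189, 181, 117, 161 and 229 CPM in unfed ones. Every fed library was above every unfed library, with the 16 dpf pair closest. Its log2 fold change was 0.99 (SE 0.21, adjusted p = 0.00257 by edgeR, higher in 5 of 5 pairs). Its homeolog ctse.S, the copy on the short chromosome of the pair, averaged 49.8 ± 10.2 CPM in the fed and 46.4 ± 6.58 CPM in the unfed libraries (SD, n = 5 each; log2 fold change 0.10, SE 0.16, adjusted p = 0.622 by edgeR). The ratio of ctse.L to ctse.S RPKM was 7.76 ± 1.61 in fed and 4.1 ± 0.596 in unfed libraries, without overlap. As a share of all cathepsin CPM, ctse.L held 20.4% ± 4.58 in fed and 8.28% ± 1.42 in unfed libraries (SD, n = 5 each), also without overlap. The remaining tested aspartic cathepsin, ctsd.S, which encodes the lysosomal protease cathepsin D, averaged 39.3 ± 7.2 CPM in the fed and 42 ± 4.28 CPM in the unfed libraries (log2 fold change -0.11, SE 0.12, adjusted p = 0.468 by edgeR).

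The cathepsins that fell were all cysteine proteases, 7 of the 13 tested (53.8%, beside 26.1% of all genes lower and 51.5% in either direction). The well expressed one with the largest fold was ctsz.S, cathepsin Z, a carboxypeptidase. It had 76.3, 68.3, 48.3, 64.5 and 89.7 CPM in fed libraries, against 77, 144, 144, 147 and 203 CPM in unfed ones. The unfed library at 10 dpf of experiment 1 lay among the fed libraries, and the other unfed libraries were all higher. Its log2 fold change was -1.01 (SE 0.20, adjusted p = 0.00163 by edgeR, lower in 5 of 5 pairs). Within experiment 1 it was -0.55 (SE 0.33) and within experiment 2 -1.28 (SE 0.17); the term for a difference between experiments had an adjusted p of 0.739 by edgeR.

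The cathepsin S genes, which in mammals serve antigen presentation, fell in both copies. ctss.S had 88.9, 75.3, 59.6, 86.2 and 120 CPM in fed libraries, against 90.2, 137, 124, 168 and 190 CPM in unfed ones. The groups overlapped only through the unfed library at 10 dpf of experiment 1, which lay inside the fed range, and the fed library at 16 dpf. Its log2 fold change was -0.70 (SE 0.17, adjusted p = 0.00554 by edgeR). ctss.L averaged 61.7 ± 11.4 CPM in the fed and 91.5 ± 23.8 CPM in the unfed libraries (SD, n = 5 each; log2 fold change -0.54, SE 0.17, adjusted p = 0.0195 by edgeR), lower in 4 of 5 pairs, and this call was lost without any 13 dpf library or either 10 dpf library of experiment 2 (adjusted p 0.0504 to 0.0691).

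ctsb.S (cathepsin B, an endo- and exopeptidase of most cells) and ctsf.L (cathepsin F) fell more modestly, at log2 fold changes of -0.61 (SE 0.14, adjusted p = 0.00454 by edgeR) and -0.73 (SE 0.17, adjusted p = 0.00485 by edgeR), each in 5 of 5 pairs. ctsb.S averaged 94.9 ± 31.5 CPM in the fed and 141 ± 26 CPM in the unfed libraries, and ctsf.L 86.1 ± 23.4 CPM in the fed and 141 ± 26 CPM in the unfed libraries (SD, n = 5 each). LOC108699333, described as cathepsin L1-like, fell at 2.45 ± 1.34 CPM in fed against 5.03 ± 1.65 CPM in unfed libraries (log2 fold change -1.07, SE 0.28, adjusted p = 0.00824 by edgeR). The cathepsin W-like gene fell at 1.86 ± 0.222 CPM in fed against 3.35 ± 0.912 CPM in unfed libraries (log2 fold change -0.83, SE 0.23, adjusted p = 0.0103 by edgeR); cathepsin W is known from cytotoxic lymphocytes in mammals.

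The most abundant cathepsin did not pass. ctsv.L had 720, 351, 328, 647 and 576 CPM in fed libraries, against 955, 811, 626, 676 and 787 CPM in unfed ones. The fed library was the lower in 5 of 5 pairs, but the groups overlapped and the fed libraries differed by more than 2-fold among themselves (log2 fold change -0.55, SE 0.25, adjusted p = 0.089 by edgeR). With the trend on transcript length removed, an alternative described below, it was -0.82 (SE 0.22, adjusted p = 0.0117 by edgeR). ctsc.L averaged 126 ± 44.1 CPM in the fed and 126 ± 31.8 CPM in the unfed libraries (SD, n = 5 each; log2 fold change -0.04, SE 0.21, adjusted p = 0.893 by edgeR), and ctsa.L, the serine carboxypeptidase that protects beta-galactosidase and neuraminidase, 99.7 ± 7.78 and 100 ± 5.93 CPM in these states. ctsk.L (-0.58, SE 0.34), ctso.L (-0.31, SE 0.18), ctsl.L (0.22, SE 0.13) and the cathepsin S-like copy a (-1.29, SE 0.56) also did not pass, with adjusted p-values by edgeR of 0.19, 0.188, 0.175 and 0.078.

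Among the 9 other lysosomal hydrolases 2 rose and 3 fell (55.6% called, beside 51.5% of all genes). lipa.L encodes lysosomal acid lipase, which splits the cholesteryl esters and triglycerides of endocytosed lipoproteins. It had 27.7, 29.5, 38.7, 36.5 and 32.2 CPM in fed libraries, against 22.4, 17.2, 20, 16.7 and 18.9 CPM in unfed ones. No unfed library reached the lowest fed one (log2 fold change 0.78, SE 0.14, adjusted p = 0.00079 by edgeR). acp2.S, lysosomal acid phosphatase, averaged 45.6 ± 7.94 CPM in the fed and 32.8 ± 4.35 CPM in the unfed libraries without overlap (SD, n = 5 each; log2 fold change 0.47, SE 0.14, adjusted p = 0.0157 by edgeR). Its call was lost without unfed 13 dpf of experiment 1, fed 16 dpf or unfed 16 dpf (adjusted p 0.0529 to 0.0668).

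Both copies of prcp, the lysosomal carboxypeptidase that removes an amino acid after proline, fell. prcp.S had 24.1, 24.4, 20.3, 19.9 and 25.2 CPM in fed libraries, against 34.8, 33.6, 36.3, 35.3 and 39.5 CPM in unfed ones. The 2 sets lay well apart and each was narrow (log2 fold change -0.66, SE 0.12, adjusted p = 0.000898 by edgeR). prcp.L averaged 8.22 ± 2.69 CPM in the fed and 14.7 ± 2.29 CPM in the unfed libraries (SD, n = 5 each; log2 fold change -0.87, SE 0.17, adjusted p = 0.00147 by edgeR). dnase2.L, the acid deoxyribonuclease, fell by 0.48 on the log2 scale (SE 0.17, adjusted p = 0.031 by edgeR), a call lost without fed 10 dpf or unfed 13 dpf of experiment 1 or any 10 or 13 dpf library of experiment 2 (adjusted p 0.059 to 0.0988). The glycosidases man2b1.L (-0.38), neu1.L (-0.17), manba.L (0.10) and the lysosomal alpha-glucosidase-like LOC108703274 (log2 fold change 0.13) did not pass. ifi30.S, a thiol reductase of the lysosome known in mammals from antigen-presenting cells, averaged 9.82 ± 1.88 CPM in the fed and 17.9 ± 4.9 CPM in the unfed libraries (SD, n = 5 each; log2 fold change -0.83, SE 0.20, adjusted p = 0.00517 by edgeR). Its more abundant homeolog ifi30.L did not pass (log2 fold change -0.25, SE 0.18, adjusted p = 0.255 by edgeR).

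Leukocyte markers moved in the same direction as these cysteine proteases. Of 16 tested genes of a list of macrophage and other leukocyte markers (17 in the files, none at 0 in all libraries, members left out), 15 were lower in fed tadpoles and none rose. Among all genes tested 26.1% were lower and 25.4% higher. The summed share of gene counts of these leukocyte markers was 0.016% to 0.0213% in the fed and 0.0287% to 0.0697% in the unfed libraries. In the unfed libraries it was 0.0287% and 0.0304% in experiment 1 and 0.0577% to 0.0697% in experiment 2. The part of leukocytes in the result was not tested.

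**Figure D4:**
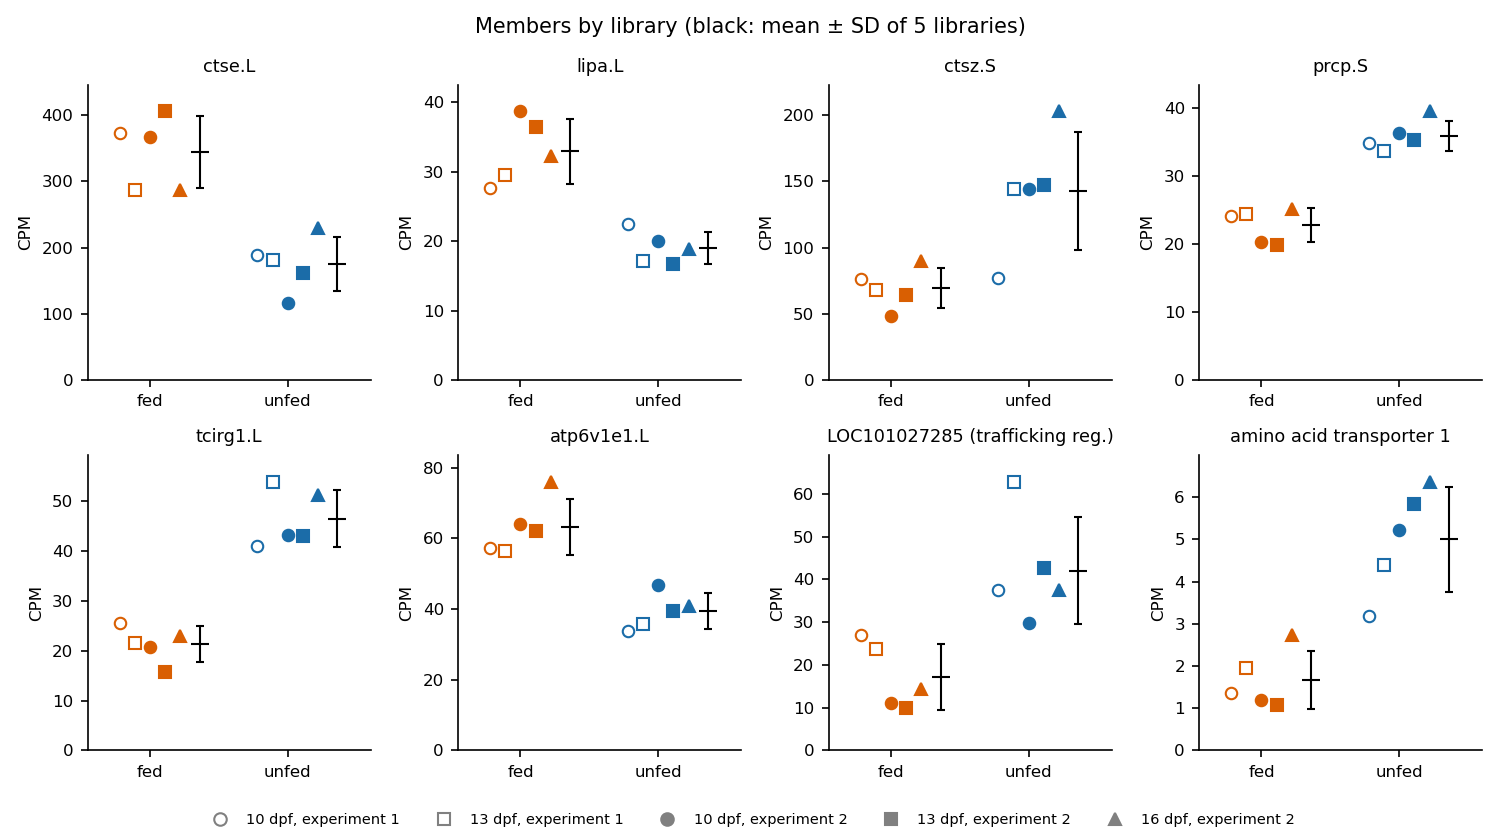
CPM (y axes, from 0) of 8 members in fed and unfed libraries; marker shape gives the age, open markers experiment 1, filled markers experiment 2, and the black bar the mean ± SD of 5 libraries. ctse.L, lipa.L and atp6v1e1.L lie wholly higher in fed libraries, prcp.S, tcirg1.L, LOC101027285 and the amino acid transporter wholly lower, and for ctsz.S 1 unfed library lies among the fed ones.

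In the lysosomal membrane the abundant glycoproteins did not pass the test, and the changes were in transporters and less abundant proteins. The 3 highest levels per length were those of LOC108718085, described as similar to lysosome-associated membrane glycoprotein 3, at 159 ± 42.2 RPKM, of lamp1.L at 151 ± 23.3 RPKM and of lamp2.S at 113 ± 20.9 RPKM (SD, n = 10). The first 2 did not differ beyond their spread. LAMP1 and LAMP2 are the main coat of the lysosome's inner face, and in mammals LAMP2 also serves autophagy. LOC108718085 averaged 213 ± 52.9 CPM in the fed and 280 ± 63.8 CPM in the unfed libraries (log2 fold change -0.41, SE 0.19, adjusted p = 0.0943 by edgeR). lamp1.L averaged 305 ± 67.3 CPM in the fed and 331 ± 21.5 CPM in the unfed libraries (log2 fold change -0.12, SE 0.19, adjusted p = 0.607 by edgeR). lamp2.S averaged 204 ± 24.6 CPM in the fed and 165 ± 33.1 CPM in the unfed libraries (log2 fold change 0.32, SE 0.16, adjusted p = 0.123 by edgeR), and its homeolog lamp2.L did not pass either (log2 fold change 0.03, SE 0.21, adjusted p = 0.906 by edgeR). LOC108716355, another gene described as similar to LAMP3, ranged over 0.838 to 3.03 CPM in the fed and 1.71 to 6.26 CPM in the unfed libraries (log2 fold change -0.75, SE 0.35, adjusted p = 0.0954 by edgeR).

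The gene described as lysosomal amino acid transporter 1 homolog had the largest fold of all members called. Its relatives in mammals and worms export cationic amino acids from the lysosome. It had 1.37, 1.94, 1.2, 1.07 and 2.73 CPM in fed libraries, against 3.18, 4.39, 5.21, 5.84 and 6.36 CPM in unfed ones. Every fed library was below every unfed one (log2 fold change -1.58, SE 0.25, adjusted p = 0.000422 by edgeR). ctns.L, which encodes the cystine exporter cystinosin, averaged 29 ± 4.36 CPM in the fed and 39.9 ± 2.53 CPM in the unfed libraries without overlap (SD, n = 5 each; log2 fold change -0.46, SE 0.13, adjusted p = 0.0123 by edgeR), a call lost with the length trend removed (log2 fold change -0.29). The remaining transporter, slc66a1l.L, a relative of the first, did not pass (log2 fold change 0.25, SE 0.15, adjusted p = 0.196 by edgeR).

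glmp.S, a glycosylated lysosomal membrane protein, had 3.61, 2.67, 4.31, 2.01 and 4.55 CPM in fed libraries, against 6.95, 6.1, 8.22, 6.19 and 10 CPM in unfed ones. The groups did not overlap (log2 fold change -1.14, SE 0.18, adjusted p = 0.000415 by edgeR). Its homeolog glmp.L averaged 12.1 ± 1.48 CPM in the fed and 12.7 ± 2.72 CPM in the unfed libraries (SD, n = 5 each; log2 fold change -0.05, SE 0.16, adjusted p = 0.808 by edgeR). laptm5.L, known in mammals from blood cells, fell at 1.82 ± 0.435 CPM in fed against 3.49 ± 0.589 CPM in unfed libraries, without overlap (log2 fold change -0.93, SE 0.24, adjusted p = 0.00741 by edgeR). Its homeolog laptm5.S had too few counts to test. laptm4a.L, a widely expressed member of the same family, rose (log2 fold change 0.33, SE 0.12, adjusted p = 0.0403 by edgeR) and laptm4a.S had 0.26 (SE 0.14, adjusted p = 0.13 by edgeR). The call on laptm4a.L was lost without any library but fed 10 dpf and fed 13 dpf of experiment 1 and unfed 10 dpf of experiment 2 (adjusted p 0.0652 to 0.14), and no membrane protein rose with the length trend removed, with the stage-field ages or without the experiment term.

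Most of the proton pump did not pass the test. Of the 19 tested V1 subunits 4 rose and none fell, of the 14 V0 subunits 4 rose and 2 fell, and of the 4 tested accessory subunits 1 rose. These are 21.1%, 42.9% and 25% called, beside 51.5% of all genes (25.4% higher and 26.1% lower). Markers listed for ionocytes (foxi1, foxi2, slc26a4, slc4a1, slc4a9, ca2 and ca12) were also read. Ionocytes that secrete protons carry the same pump in their plasma membrane in other tissues, but this list does not separate types of ionocyte. The listed markers held 0.131% to 0.189% of gene counts in the fed and 0.0524% to 0.117% in the unfed libraries, without overlap. These are sums over genes, not counts of cells. Of 11 tested markers 5 rose and 1 fell. The pump genes known as ionocyte forms in mammals, atp6v1b1.L and atp6v0a4.L, did not pass. Of these, atp6v0a4.L was the lower in fed libraries in all pairs (log2 fold change -0.67, SE 0.28, adjusted p = 0.0636 by edgeR). The part of ionocytes in the result was not tested. Per length the highest levels were those of atp6v0e1.L, a small V0 subunit, at 125 ± 21.3 RPKM, of atp6v1g1.S, a stalk subunit, at 82.3 ± 16.1 RPKM, and of atp6v1d.L, the central rotor subunit, at 67.1 ± 12.7 RPKM (SD, n = 10). atp6v1g1.S and atp6v1d.L did not differ beyond their spread. The V1 A genes of the catalytic head summed to 12.2 ± 1.55 RPKM in fed and 11.7 ± 2.11 RPKM in unfed libraries, and the V1 B genes to 27 ± 4.84 RPKM in fed and 24.6 ± 6.07 RPKM in unfed libraries (SD, n = 5 each). The V0 c genes of the proton-binding ring summed to 82.5 ± 25.1 RPKM in fed and 73.5 ± 25.1 RPKM in unfed libraries, with overlap. The count of pump subunits that rose was 9 with all libraries, 5 without fed 13 dpf of experiment 2 and 4 without unfed 13 dpf of experiment 2, and that of subunits that fell was 2 with all libraries and 4 without fed 10 dpf of experiment 1.

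The V1 subunit with the clearest rise was atp6v1e1.L, of the peripheral stalk that holds the head still against the rotor. It had 57.3, 56.4, 64.1, 62.2 and 76 CPM in fed libraries, against 33.8, 35.8, 46.9, 39.5 and 41 CPM in unfed ones. All fed libraries were higher than all unfed ones (log2 fold change 0.68, SE 0.12, adjusted p = 0.000859 by edgeR). Its homeolog atp6v1e1.S lay just outside the threshold at 0.33 (SE 0.13, adjusted p = 0.0507 by edgeR). The 2 genes summed to 78.4 ± 9.57 RPKM in fed and 52.4 ± 7.61 RPKM in unfed libraries (SD, n = 5 each), without overlap.

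The subunit V1 F gene atp6v1f.L, of the rotor, averaged 72.1 ± 8.4 CPM in the fed and 53.1 ± 4.01 CPM in the unfed libraries without overlap (log2 fold change 0.44, SE 0.13, adjusted p = 0.0164 by edgeR). That call was lost without fed 13 dpf or unfed 13 dpf of experiment 2 (adjusted p 0.0599 and 0.0698), and with the trend on transcript length removed (log2 fold change 0.12, SE 0.11, adjusted p = 0.395 by edgeR). atp6v1h.S, of the subunit that couples ATP hydrolysis to transport, averaged 58.6 ± 7.44 CPM in the fed and 43.7 ± 5.83 CPM in the unfed libraries (log2 fold change 0.42, SE 0.13, adjusted p = 0.02 by edgeR), whereas atp6v1h.L had -0.19 (SE 0.16, adjusted p = 0.342 by edgeR). The call on atp6v1h.S was lost without either 16 dpf library, either unfed 13 dpf library or fed 13 dpf of experiment 2 (adjusted p 0.0621 to 0.0781). The S copy held 66.4% ± 3.2 of the summed V1 H RPKM in fed and 56.3% ± 2.82 in unfed libraries (SD, n = 5 each), without overlap. A gene absent from the gene table and described as V-type subunit G 1-like rose at 0.40 (SE 0.15, adjusted p = 0.0423 by edgeR), a call lost without any library but the 16 dpf ones and unfed 10 dpf of experiment 2 (adjusted p 0.0579 to 0.131) and with the length trend removed (log2 fold change 0.09). Of the other V1 genes present in several copies, atp6v1b2.S held 63.7% ± 5.5 of the V1 B RPKM in fed and 60% ± 8 in unfed libraries, and atp6v1b1.L, the ionocyte form in mammals, 4.81% ± 1.64 and 5.27% ± 2.71 in these states. atp6v1c1.L and atp6v1c1.S together held nearly all V1 C RPKM, at 57.5% ± 5.03 and 38.6% ± 4.59 in fed libraries and 59.1% ± 3.42 and 37.7% ± 3.18 in unfed libraries. Of the V1 G RPKM, atp6v1g1.S held 41.3% ± 3.59 in fed and 44.6% ± 6.3 in unfed libraries, and atp6v1g3.L, the kidney form in mammals, 1.66% ± 0.337 in fed and 2.41% ± 0.667 in unfed libraries (SD, n = 5 each).

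The V0 a subunit, the large membrane subunit whose isoform is known in mammals to direct the pump to its compartment, changed in composition. tcirg1.L encodes the a3 isoform, which in mammals serves lysosomes and the osteoclast border. It had 25.6, 21.5, 20.8, 15.7 and 22.9 CPM in fed libraries, against 41.1, 53.9, 43.2, 43.1 and 51.2 CPM in unfed ones. The groups lay far apart, with the highest fed library well below the lowest unfed one (log2 fold change -1.13, SE 0.14, adjusted p = 0.000102 by edgeR). It fell within experiment 1 (-1.01, SE 0.26, adjusted p = 0.022 by edgeR) and within experiment 2 (-1.19, SE 0.16, adjusted p = 0.00169 by edgeR). As a share of the RPKM summed over the 5 a genes, tcirg1.L held 38.5%, 28.7%, 36.8%, 31.5% and 34.9% in fed libraries, against 47.7%, 56.6%, 51.4%, 55.7% and 55.4% in unfed ones. The summed level of the 5 genes was itself lower, at 22.8 ± 3.53 RPKM in fed and 31.7 ± 2.56 RPKM in unfed libraries (SD, n = 5 each), without overlap.

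**Figure D5:**
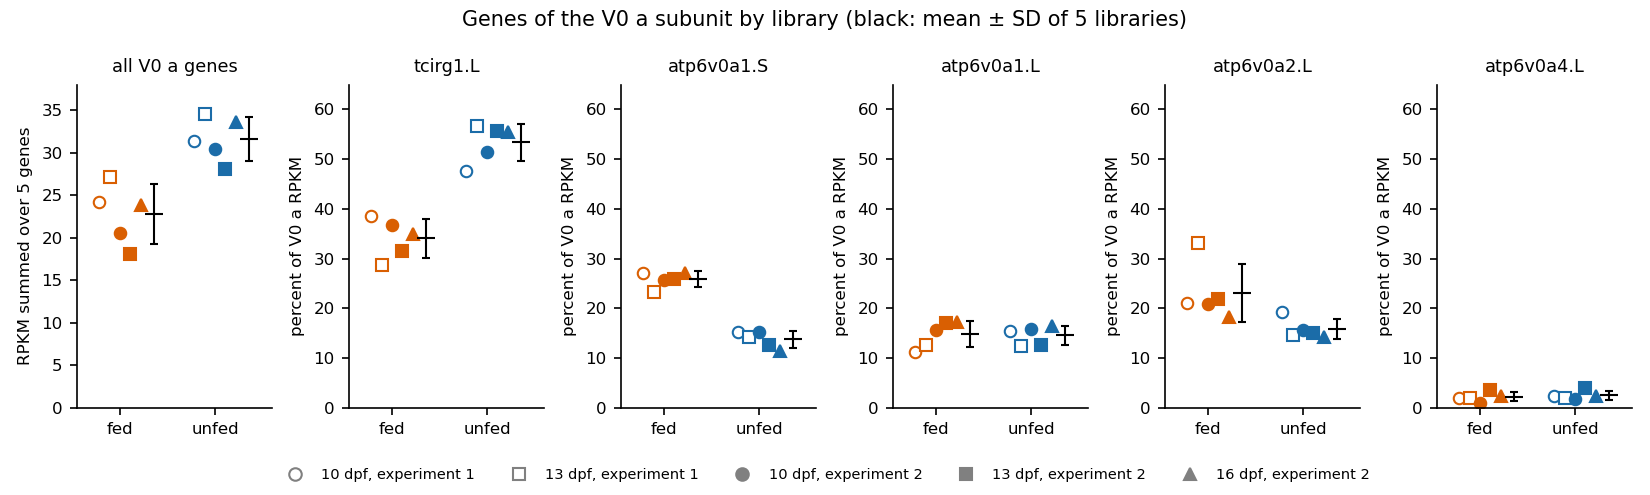
The first panel shows RPKM summed over the 5 V0 a genes (y axis, from 0), and the others the percent of that sum held by each gene, in fed and unfed libraries; marker shape gives the age, open markers experiment 1, filled markers experiment 2, and the black bar the mean ± SD. The tcirg1.L share is lower in every fed library than in any unfed one, and the atp6v0a1.S share is higher. The shares of the other genes also depend on tcirg1.L, which is part of the sum.

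The 2 homeologs of atp6v0a1, which encodes the a1 isoform, moved in opposite directions. atp6v0a1.S rose at 22.6, 21.7, 18.2, 16.1 and 22.3 CPM in fed libraries, against 16.3, 16.9, 15.9, 12.1 and 13.2 CPM in unfed ones (log2 fold change 0.44, SE 0.13, adjusted p = 0.0164 by edgeR). atp6v0a1.L fell at 12.6, 15.9, 14.8, 14.2 and 19 CPM in fed libraries, against 22.4, 19.7, 22.3, 16.4 and 25.3 CPM in unfed ones (log2 fold change -0.47, SE 0.14, adjusted p = 0.0142 by edgeR). Each copy held its direction in 5 of 5 pairs, although fed and unfed ranges overlapped for both. The ratio of S to L RPKM was 1.8 ± 0.365 in fed and 0.955 ± 0.163 in unfed libraries (SD, n = 5 each), without overlap; the labels do not say how reads that fit both copies were assigned. The call on atp6v0a1.S was lost without fed 16 dpf, unfed 16 dpf or unfed 13 dpf of experiment 2 (adjusted p 0.0522 to 0.0679), and that on atp6v0a1.L with the length trend removed (log2 fold change -0.21, SE 0.13, adjusted p = 0.2 by edgeR). The a2 gene atp6v0a2.L (5.35 ± 2.1 RPKM in fed, 4.99 ± 0.661 RPKM in unfed) and the a4 gene atp6v0a4.L, the ionocyte form in mammals (0.494 ± 0.164 RPKM in fed, 0.778 ± 0.211 RPKM in unfed), did not pass.

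Both copies of atp6v0b, a proteolipid of the V0 ring, rose together. atp6v0b.S had 46.5, 52, 34, 38 and 33.1 CPM in fed libraries, against 28.6, 31.8, 28.1, 27.7 and 25.3 CPM in unfed ones (log2 fold change 0.51, SE 0.12, adjusted p = 0.00473 by edgeR). The fed libraries were all higher, and those of experiment 1 most so. atp6v0b.L averaged 25.8 ± 4.65 CPM in the fed and 18.2 ± 1.88 CPM in the unfed libraries (SD, n = 5 each; log2 fold change 0.49, SE 0.12, adjusted p = 0.00678 by edgeR). atp6v0e1.L was at the edge of the threshold (log2 fold change 0.32, SE 0.12, adjusted p = 0.0459 by edgeR), lost without any library but fed 13 dpf of experiment 1 (adjusted p 0.0599 to 0.146) or with the length trend removed (log2 fold change 0.00), and its homeolog atp6v0e1.S had 0.14 (SE 0.19, adjusted p = 0.566 by edgeR). Of the V0 d genes, whose product joins the sectors, atp6v0d1.L held 88.6% ± 1.81 of the RPKM in fed and 84.2% ± 6.83 in unfed libraries, and atp6v0d2.L the rest.

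The largest rise among all members was in atp6ap1.2.L, of the accessory subunit Ac45 that assists assembly and sorting of the pump. It had 8.08, 10.3, 20.9, 14.7 and 15 CPM in fed libraries, against 4.63, 3.64, 6.99, 8.14 and 10.2 CPM in unfed ones. Experiment 2 was higher than experiment 1 in both states, so the ranges overlapped, but each fed library exceeded its unfed partner (log2 fold change 1.06, SE 0.18, adjusted p = 0.000723 by edgeR). Within experiment 1 it was 1.14 (SE 0.33, adjusted p = 0.0355 by edgeR) and within experiment 2 1.02 (SE 0.23, adjusted p = 0.0107 by edgeR). Its homeolog atp6ap1.2.S, at a higher level, averaged 26.5 ± 5.82 CPM in the fed and 27.7 ± 6.08 CPM in the unfed libraries (SD, n = 5 each; log2 fold change -0.06, SE 0.12, adjusted p = 0.709 by edgeR).

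Transcript length moved with feeding across the whole data set. With all tested genes cut into 3 equal parts by length, the median log2 fold change was 0.27 in the shortest (median 1320 bases), -0.01 in the middle and -0.29 in the longest part (median 4457 bases). The tested pump subunits had a median length of 1961 bases, hydrolases 1810 bases, membrane proteins 1884 bases and all genes 2471 bases. With a smooth trend on length taken out of each library, the median of the members was -0.12, and 11 of the 96 tested rose and 24 fell. Among all 21674 genes tested, 5318 rose and 5074 fell in that fit. The calls on atp6v1f.L, atp6v0e1.L, the V-type subunit G 1-like gene, laptm4a.L (log2 fold change 0.08 in that fit), bloc1s1.S, lamtor3.L, rilpl2.L, ctns.L and atp6v0a1.L were then lost, and 26 of the 35 kept their call and sign.

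Of the 16 pairs in which both homeologs could be tested, both copies passed in 4, only the L copy in 5, only the S copy in 3 and neither in 4. The signs of the 2 copies were the same in 12 pairs and opposite in 4. Among all single genes tested 51.5% passed. No counts over all homeolog pairs stand beside these, so they are not read as a trait of these genes. Apart from atp6v0a1, the opposite pairs (atp6ap1.2, atp6v1a and atp6v1h) had at most 1 copy past the threshold, and the difference between copies was not tested.

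Among the other members, LOC101027285, the lysosomal-trafficking regulator whose loss in mammals gives enlarged lysosomes, fell most. It had 26.9, 23.6, 11.1, 9.91 and 14.3 CPM in fed libraries, against 37.4, 62.8, 29.7, 42.6 and 37.4 CPM in unfed ones. The highest fed library lay below the lowest unfed one (log2 fold change -1.35, SE 0.19, adjusted p = 0.000255 by edgeR). Its transcript is long, at 12145 bases, and its call was kept with the length trend removed. rilpl2.L, a Rab effector related to the lysosomal protein RILP, averaged 14.5 ± 2.29 CPM in the fed and 9.25 ± 1.72 CPM in the unfed libraries without overlap (SD, n = 5 each; log2 fold change 0.65, SE 0.18, adjusted p = 0.00987 by edgeR). With the length trend removed this call was lost (log2 fold change 0.39, SE 0.16, adjusted p = 0.072 by edgeR).

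The Ragulator complex, which anchors the nutrient-sensing Rag GTPases on the lysosome, had 1 of 6 genes past the threshold. lamtor3.L averaged 43.8 ± 5.62 CPM in the fed and 31.5 ± 5.6 CPM in the unfed libraries (SD, n = 5 each; log2 fold change 0.48, SE 0.12, adjusted p = 0.00646 by edgeR), a call lost with the length trend removed (0.28, SE 0.11, adjusted p = 0.0617 by edgeR). The other Ragulator genes lay between -0.04 and 0.15, lamtor5.S at 0.09 (SE 0.16, adjusted p = 0.647 by edgeR). Of the BLOC-1 genes, which build lysosome-related organelles, bloc1s5.L fell (-0.46, SE 0.15, adjusted p = 0.0214 by edgeR), bloc1s1.S rose at the edge of the threshold (0.38, SE 0.15, adjusted p = 0.0497 by edgeR) and the most abundant, bloc1s2.L, had 0.13 (SE 0.16, adjusted p = 0.536 by edgeR). The call on bloc1s5.L was lost without either 16 dpf library, fed 13 dpf or unfed 10 dpf of experiment 1, or fed 10 dpf or unfed 13 dpf of experiment 2 (adjusted p 0.0502 to 0.0703). That on bloc1s1.S was lost without any 10 or 13 dpf library but fed 13 dpf of experiment 1 (adjusted p 0.0541 to 0.163) and with the length trend removed (log2 fold change 0.07). Both gba2.S, described as non-lysosomal, and manbal.L were taken by the rule and did not pass over all ages.

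The 27 members that were not tested were 17 hydrolases, 4 membrane proteins and 6 pump subunits, and none exceeded a mean of 1.13 CPM. The hydrolases among them were the aspartic LOC108712486 and 16 cysteine cathepsins, most of them described as cathepsin S or K, with ctsw.L (95 counts in all libraries), LOC108699334 (61) and LOC108700335 (46) the highest. The membrane proteins were laptm5.S (58 counts), laptm4b.L (21), laptm4b.S (9) and lamp5.S (3), and the pump subunits LOC108696943 (65), atp6v1g2.L (58), atp6v1g2.S (44), atp6v1g3.S (27), atp6v1c2.S (12) and atp6ap1l.L (5). Of these 27 genes 2 had no count in any library.

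At single ages fewer members passed, and 7 did so at both. These comparisons, and those between ages, used the ages of the titles. The stage-field ages were tried only for fed against unfed over all ages. At 10 dpf 3 members rose and 8 fell (11.5% of those tested), beside 12% of all genes higher, 10.5% lower and 22.6% in either direction. At 13 dpf 8 rose and 12 fell (20.8%), beside 17.6%, 15.8% and 33.5% of all genes. Members past the threshold at both ages were ctse.L and atp6ap1.2.L, which rose, and prcp.S, glmp.S, the amino acid transporter, tcirg1.L and LOC101027285, which fell. ctse.L had log2 fold changes of 1.29 at 10 dpf (SE 0.32, adjusted p = 0.015 by edgeR) and 1.03 at 13 dpf (SE 0.32, adjusted p = 0.0273 by edgeR), and a log2 ratio of 0.33 at 16 dpf. tcirg1.L had -0.87 at 10 dpf (SE 0.22, adjusted p = 0.015 by edgeR) and -1.39 at 13 dpf (SE 0.22, adjusted p = 0.0012 by edgeR), and a log2 ratio of -1.15 at 16 dpf. Each of these ages had 2 libraries per state, and its test shared an estimate of the spread over all 10 libraries. The p-values therefore do not measure the spread at that age alone. The counts moved with single libraries, also with libraries of the other age. At 10 dpf, without fed 10 dpf or without unfed 10 dpf of experiment 2, 0 members rose and 0 fell; without fed 10 dpf of experiment 1, 1 rose and 1 fell. Without fed 13 dpf of experiment 1, 11 rose and 14 fell at 10 dpf, and without fed 13 dpf of experiment 2, 8 rose and 14 fell. The number that fell at 10 dpf was 5 without unfed 10 dpf of experiment 1 and 4 without either unfed 13 dpf library. At 13 dpf, 0 rose and 6 fell without unfed 13 dpf of experiment 1, 0 rose and 4 fell without unfed 13 dpf of experiment 2, and 5 rose without either unfed 10 dpf library.

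At 16 dpf there was 1 library per state and no replicate check. Of the 96 members 9 (9.38%) differed by more than 2-fold, beside 24.5% of all genes. The 7 that were lower in the fed library were LOC108699333 (log2 ratio -2.18), LOC101027285 (-1.38), ifi30.S (-1.23), ctsz.S (-1.18), tcirg1.L (-1.15), the amino acid transporter (-1.15) and glmp.S (-1.10). The 2 that were higher were gba2.S (18.7 CPM in the fed and 6.46 CPM in the unfed library) and lamp2.L (log2 ratio 1.06), neither of which was called over all ages.

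No member passed for a change of the feeding difference between 10 and 13 dpf, and neither did any of all genes (0%). By edgeR 8 of 96 members had an unadjusted p under 0.05 for this change, 8.33% against 5.16% of all genes, and DESeq2 called 0 members with 4 under an unadjusted 0.05. The thiol reductases were among the 8: the feeding difference of ifi30.S was -0.25 at 10 dpf (SE 0.25) and -1.20 at 13 dpf (SE 0.25), with an adjusted p of 0.882 by edgeR for the change. For 13 over 10 dpf no member passed in fed tadpoles (0% of all genes; 3 members under an unadjusted 0.05 by edgeR, 3.12% against 1.8% of all genes, and 0 called and 2 under 0.05 by DESeq2). None passed in unfed tadpoles (0.00923% of all genes; 8 members under an unadjusted 0.05 by edgeR, 8.33% against 6.2% of all genes, and 0 called and 5 under 0.05 by DESeq2). For a difference of the feeding effect between experiments none passed either (0% of all genes; 3 members under an unadjusted 0.05 by edgeR, 3.12% against 6.74% of all genes, and 0 called and 3 under 0.05 by DESeq2).

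Genes of the same organelle that the description rule does not take were read from lists, to be set beside the 51.5% of all genes that passed (25.4% higher, 26.1% lower) and their median of -0.02. Of 46 genes of lysosomal enzymes and of other proteins of the lysosome's interior outside the rule, 2 rose and 16 fell (39.1% called). Their median log2 fold change was -0.25. The smallest p-values among those that passed were those of grn.L (-1.69), gusb.S (-1.17), gns.S, a sulfatase of heparan and keratan sulfate (-1.02, SE 0.15, adjusted p = 0.000245 by edgeR), and glb1.L (-1.23). Of 28 membrane and transport proteins outside the rule 2 rose and 7 fell (32.1% called), with a median of -0.25. The amino acid sensor slc38a9.S fell (-1.12, SE 0.28, adjusted p = 0.00667 by edgeR), as did spns1.L (-0.66) and tmem106b.S (-0.86), whereas the amino acid exporter slc36a1.S rose (0.98, SE 0.24, adjusted p = 0.00647 by edgeR).

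Of 26 genes of sorting to the lysosome 3 rose and 3 fell (23.1% called), with a median of -0.01. igf2r.L, the receptor that carries mannose 6-phosphate tagged hydrolases to the lysosome, averaged 42.4 ± 7.54 CPM in the fed and 84.8 ± 7.97 CPM in the unfed libraries (SD, n = 5 each; log2 fold change -1.01, SE 0.14, adjusted p = 0.000171 by edgeR). gnptab.L, of the enzyme that makes that tag, averaged 38.2 ± 9.15 CPM in the fed and 21.2 ± 2.96 CPM in the unfed libraries (log2 fold change 0.83, SE 0.15, adjusted p = 0.000889 by edgeR). The adaptor genes ap1m1.S (0.71) and ap3b1.L (log2 fold change -0.42) also passed. Of 24 genes of nutrient sensing at the lysosome 1 rose and 13 fell (58.3% called, against 51.5% of all genes), with a median of -0.55. The smallest p-values were those of the folliculin partners fnip2.L (-2.12), fnip2.S (-2.35) and fnip1.S (-2.34) and of sesn1.L, which restrains mTORC1 in amino acid shortage (log2 fold change -2.05, SE 0.16, adjusted p = 8.5e-06 by edgeR).

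Of 24 genes of endocytic uptake 12 rose and 3 fell (62.5% called, against 51.5% of all genes), with a median of 0.35. The uptake receptor lrp2.L (-1.54) and its adaptor dab2.S (-1.02, SE 0.18, adjusted p = 0.000739 by edgeR) fell, whereas the clathrin light chain gene clta.S (0.85, SE 0.13, adjusted p = 0.000392 by edgeR) and the recycling GTPase gene rab11a.L (0.75, SE 0.12, adjusted p = 0.000538 by edgeR) rose. Of 13 regulators of the pump outside the rule 2 rose and 4 fell (46.2% called), with a median of -0.21. ncoa7.L fell at 3.78 ± 0.265 CPM in fed against 12.5 ± 1.89 CPM in unfed libraries (log2 fold change -1.72, SE 0.17, adjusted p = 2.93e-05 by edgeR), and dmxl2.L, a rabconnectin that promotes pump assembly, fell too (-0.98, SE 0.17, adjusted p = 0.00079 by edgeR). tmem199.L (0.55) and rnasek.L (0.51) rose.

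Markers of the tissue and of other cell types were read as shares of gene counts. The calls among them are to be set beside the 25.4% of all genes tested that rose and the 26.1% that fell. Enterocyte markers held 3.92% to 4.84% in fed and 1.13% to 4.63% in unfed libraries; 5 of 17 tested rose and 1 fell, and none of their 20 genes was at 0 throughout. Of the ionocyte markers 5 of 11 rose and 1 fell. Smooth muscle markers held 0.763% to 1.54% in fed and 0.697% to 1.24% in unfed libraries, and 5 of 10 rose while 0 fell. Goblet cell markers held 0.173% to 0.189% in fed and 0.153% to 0.269% in unfed libraries, and 3 of 8 rose while 2 fell, with tff3.8.L at 0. Stomach gland markers held 0.241% to 0.457% in fed and 0.351% to 0.489% in unfed libraries, and 1 of 4 rose while 1 fell, with pgc.S at 0. Liver markers held 0.126% to 0.304% in fed and 0.108% to 0.356% in unfed libraries, and 1 of 4 rose while 0 fell. Exocrine pancreas markers held 0.012% to 0.162% in fed and 0.0211% to 0.222% in unfed libraries, and of 13 tested 0 passed by edgeR or DESeq2, with 1 under an unadjusted 0.05 by each. The part of these cells in the results was not tested.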

How the data were processed

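RNA of 10 libraries of Xenopus laevis intestinal tubes was sequenced. Per the submitters' processing notes HISAT2 and featureCounts were used; their versions and roles, and the build of the genome, were not stated there. Per the file headers the authors deposited raw counts for each transcript (63876 rows, not normalized) with, in other columns, its length in bases. The 10 deposited RPKM columns were not used. Rows with a blank name (0.0738% of counts) and named rows without an accession (0.136%) were left out. The other 61159 rows were joined to 34217 genes, each represented by its highest row; in 83.8% of 9727 genes with several variants and at least 100 counts, the top pair of variants differed by at most 10%. Symbols came from a RefSeq gene table of assembly Xenopus_laevis_v10.1, used for names only, which held 26905 of the genes and 115 of the 123 members; .L and .S mark the homeologs of this allotetraploid frog. No sequence is given, since sequences were not used here. No neighbouring gene had counts within counting noise of a member's.

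Analyses ran in R 4.3.3 with edgeR 4.0.16 (filterByExpr, TMM, quasi-likelihood F test, robust) and in Python with pandas and SciPy; figures were drawn with matplotlib. The all-ages model held experiment, age and feeding; single ages, their change and the age comparisons came from a model of experiment and 6 groups; a further model added feeding by experiment. The experiment number is the replicate number and was a block: the labels divide the study by it, and deviations of same-numbered libraries correlated across genes in all 6 pairs of groups (r 0.338 to 0.513). The 16 dpf pair was compared as a log2 CPM ratio (prior count 2), without a test. RPKM is the scaled CPM per kilobase. DESeq2 1.42.0 was an alternative. The fit was tested on simulated data. The members, lists and tests were chosen with earlier results of these data known. Named members are, per class, up to 6 with the highest and 6 with the lowest fold change among those called with the same sign in 5 of 5 pairs, the 3 with the highest RPKM and their homeologs; cathepsins and paralogous pump subunits are given as levels; other called members are named to complete a count, having been chosen after their values were seen.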

Additional observations from a re-analysis of the deposited data

Results flagged for a closer look

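Among 100 groups of 5 libraries looked at for the named members and the class shares, 4 held a library far from the other 4; chance flags about 1 in 20 groups. acp2.S had 59.5 CPM in the fed library at 16 dpf, above the other fed libraries. ctsc.L had 204 CPM in the same fed library at 16 dpf, above the other fed libraries. ctns.L had 36.7 CPM in the fed library at 13 dpf of experiment 1, above the other fed libraries and just below the lowest unfed one. atp6v0e1.S had 20.9 CPM in the unfed library at 10 dpf of experiment 1, below the other unfed libraries.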

How the results depend on the processing

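The experiment number was a term of every model; in the fit with no replicate block, 30 of the 35 calls over all ages were made. At 10 dpf that fit had 1 member higher and 2 lower, and at 13 dpf 1 higher and 5 lower, against 3 and 8 and against 8 and 12 with it. DESeq2's test gave 2 lower at 10 dpf and 3 higher at 13 dpf, counts with no filter on low values gave 4 lower at 10 dpf, and counts summed over transcript rows 5 lower at 10 dpf. With the length trend removed, 5 were higher and 20 lower at 13 dpf. The number of membrane proteins higher was 0, against 1, without the block, with the length trend removed, with the stage-field ages and within either experiment. Within experiment 1 (4 libraries) 1 member was higher and 3 lower, with 0 and 0 hydrolases, 0 membrane proteins lower, and 1 pump subunit higher and 1 lower. Within experiment 2 (6 libraries) 8 members and 4 pump subunits were higher. The counts of all genes also fell, from 5509 higher and 5654 lower with all libraries. They were 1959 and 1672 within experiment 1, and 4827 and 4549 within experiment 2. Fewer samples enter those fits, and the cause of the other differences was not tested.

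Without any 1 library, over all ages 9 to 19 members were higher and 16 to 21 lower, hydrolases ranged over 2 to 3 higher and 9 to 12 lower, membrane proteins over 0 to 2 and 4 to 5, and pump subunits over 4 to 11 and 2 to 4. At 10 dpf the ranges were 0 to 11 higher and 0 to 14 lower, and at 13 dpf 0 to 8 and 4 to 13. The comparisons with 0 members called over all libraries had 0 without any 1. Of the 35 calls 24 were kept without any 1 library; DESeq2's test kept 31, the length correction 26 and the stage-field ages 32. No call changed sign under any alternative run. Members under a mean of about 1 CPM could not be tested at this depth.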
